A study of Mus musculus with 8 samples.

Results

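A set of 10 genes that mark endothelial cells was read across the 8 arrays of the series: Pecam1, Cdh5, Cldn5, Esam, Kdr, Flt1, Tek, Emcn, Vwf and Egfl7. They were given by name, and each was read from its probe set that names 1 gene only and has the highest mean of the 8 arrays. These are 10 of the 22180 genes so read. The arrays measured RNA from the thoracic annulus fibrosus, the ring of fibrocartilage around the core of the intervertebral disc, in Black 6 mice. ENT1-null mice lack exons 2 to 4 of Slc29a1, the gene of the adenosine carrier ENT1, and the labels name no Cre or tissue promoter. WT and ENT1-null mice were taken at 2 and at 6 months of age, and each of these 4 groups has 2 arrays. Each array held RNA pooled from 5 to 6 annulus tissues, and nothing says whether the 2 pools of each group were made from different mice, so p-values measure only the spread between these pools. Values are RMA levels on the log2 scale, where a difference of 1 is a doubling, and no level of one gene is set against that of another.

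Endothelial cells line blood and lymph vessels. They are held together by junction proteins, take their growth signals mainly through the receptors for VEGF and the angiopoietins, and rest on a basement membrane shared with mural cells. The annulus is known as a tissue with vessels in its outermost layers only, beside vertebral bone whose marrow is rich in sinusoids, the wide thin-walled vessels through which blood cells leave the marrow. A pooled tissue holds the RNA of all its cells, and fewer cells of a type cannot be told apart from less RNA per cell. All 10 genes lay above the level below which genes were left out (6.21, the 30th percentile of gene means), and 15526 genes were tested.

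Slc29a1 was lower on all ENT1-null arrays (8.80 to 9.36) than on all WT arrays (10.34 to 10.71). Sox9, the cartilage transcription factor, had levels of 10.86 to 12.21, and the mean of 15 annulus and cartilage genes ran from 10.47 to 11.40 over the arrays. Markers of other tissue were also measured on every array: the mean of 15 neutrophil genes ran from 8.69 to 11.84 and that of 14 skeletal muscle genes from 7.44 to 10.34. Both lists differ between arrays of 1 group and are given below beside the results.

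Many endothelial genes carry sites for ETS transcription factors such as ERG and FLI1 near their starts, and a composite of a forkhead and an ETS site is known from endothelial enhancers. The RefSeq promoter table of build GRCm38.p6 matched 6 of the 10 genes (8 promoters), and those of Pecam1, Cdh5, Vwf and Esam are not shown. The letters AGGAAG (an ETS core) and AACAGGAA (the composite, which overlaps that core where a G follows) were searched on both strands of the 250 bases before each start. AGGAAG was present in 4 of the 8 promoters (3 of the 6 genes) and in 29.5% of all 32851 promoters of that length. Egfl7 alone has 3 of the 8 promoters. AACAGGAA was present in 2 of the 8, those of Emcn and the first of Egfl7, and in 2.25% of all. A match is a description of the letters, not evidence of a bound site. The promoters of 3 genes that hold matches are shown beside that of Kdr, which holds none, each 5′ to 3′ on the gene's strand with the matches on either strand in capitals. They are Emcn (chr3:137340828-137341077, plus strand), the first of Egfl7 (chr2:26580833-26581082, plus strand), Flt1 (chr5:147726012-147726261, minus strand) and Kdr (chr5:75978456-75978705, minus strand).
Emcn: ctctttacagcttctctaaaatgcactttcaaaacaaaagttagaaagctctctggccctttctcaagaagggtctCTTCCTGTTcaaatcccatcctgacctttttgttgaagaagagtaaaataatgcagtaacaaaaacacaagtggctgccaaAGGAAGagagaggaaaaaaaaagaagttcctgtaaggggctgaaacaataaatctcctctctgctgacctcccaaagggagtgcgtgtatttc
Egfl7: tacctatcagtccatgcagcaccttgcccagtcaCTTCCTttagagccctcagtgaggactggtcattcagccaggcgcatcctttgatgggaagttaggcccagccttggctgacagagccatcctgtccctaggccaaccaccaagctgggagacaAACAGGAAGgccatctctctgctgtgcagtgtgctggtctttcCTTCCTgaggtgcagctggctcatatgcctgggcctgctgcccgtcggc
Flt1: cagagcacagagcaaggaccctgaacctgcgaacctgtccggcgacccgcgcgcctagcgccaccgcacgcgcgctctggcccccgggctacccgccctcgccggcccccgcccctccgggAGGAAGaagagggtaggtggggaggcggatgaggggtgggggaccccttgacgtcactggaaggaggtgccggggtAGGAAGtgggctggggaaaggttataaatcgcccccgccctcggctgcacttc
Kdr: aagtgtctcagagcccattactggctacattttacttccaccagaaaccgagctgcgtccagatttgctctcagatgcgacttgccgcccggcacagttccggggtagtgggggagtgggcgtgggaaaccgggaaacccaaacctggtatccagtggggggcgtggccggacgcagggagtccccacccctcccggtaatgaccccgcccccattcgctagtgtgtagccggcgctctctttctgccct
In Emcn the composite lies 173 to 166 bases before the start on the minus strand, and in Egfl7 92 to 85 bases before it on the plus strand. As given below, neither gene passed the test of genotype at either age in the fit of all 8 arrays. Egfl7 passed at 6 months in a fit of only the groups compared (limma adjusted p = 0.0137). Vwf, Pecam1 and Esam, which passed at 6 months, have no matched promoter here. Whether these letters bear on the genotype differences was not tested.

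All 10 endothelial genes had a higher mean in ENT1-null than in WT annulus at each age, except that Emcn at 6 months was at −0.02 after a further quantile normalization. Leaving out 1 array also turned Cldn5 at 2 months (−0.04 without WT replicate 1, −0.0025 without ENT1-null replicate 2). Flt1 at 6 months turned to −0.01 without ENT1-null replicate 1. At 2 months the median difference was 0.37 (log2), against −0.04 over all genes tested, and none of the 10 passed the test (limma, Benjamini-Hochberg adjusted p below 0.05), while 0.683% of all genes did and 0.296% rose. At 6 months the median was 0.44, against −0.03 over all genes, and 3 of 10 rose, where 38.8% of all genes passed in either direction and 21.2% rose. The 3 were Vwf, the clotting glycoprotein of endothelial storage granules, Pecam1, an adhesion molecule of the cell border, and Esam, another junction adhesion molecule. Differences above 0 were found for 39.6% of all genes at 2 months and 47.1% at 6 months.

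**Figure D1:**
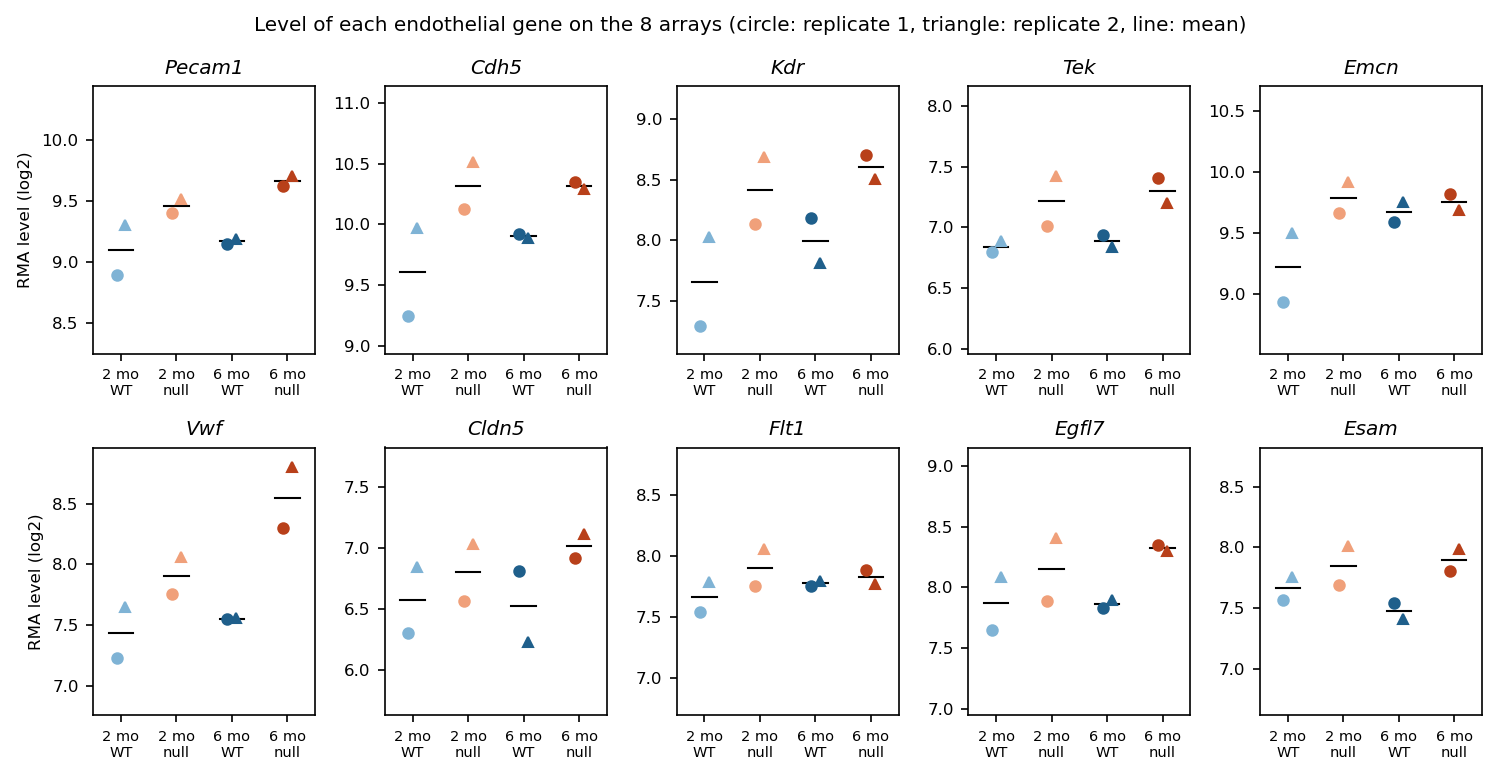
RMA level (log2, one scale width for all panels) of each endothelial gene on the 8 arrays, with circles for replicate 1, triangles for replicate 2 and a line at the mean of each group. The ENT1-null means lie above the WT mean of the same age in every panel (Emcn at 6 months not after a further quantile normalization), and the 2 month WT replicate 1 array is the lowest of the 8 for 8 of the 10 genes.

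Of the junction genes, Cdh5 encodes VE-cadherin, the adhesion protein that defines the endothelial adherens junction. Its level was 9.25 and 9.97 in 2 month WT, 10.12 and 10.51 in 2 month ENT1-null, 9.93 and 9.89 in 6 month WT and 10.35 and 10.29 in 6 month ENT1-null annulus. The ENT1-null arrays lay above the WT arrays at each age without overlap, and the 2 WT arrays at 2 months stood farther apart than any other pair. The difference was 0.71 ± 0.22 (SE, n = 2 and 2, limma adjusted p = 0.148) at 2 months and 0.41 ± 0.22 (adjusted p = 0.187) at 6 months. Pecam1, also carried by platelets and white blood cells, was at 8.89 and 9.30 in 2 month WT, 9.40 and 9.51 in 2 month ENT1-null, 9.15 and 9.19 in 6 month WT and 9.62 and 9.70 in 6 month ENT1-null. Here too the genotypes did not overlap at either age. The difference was 0.36 ± 0.13 (limma adjusted p = 0.199) at 2 months, and at 6 months Pecam1 rose by 0.49 ± 0.13 (adjusted p = 0.0225), a fold of 1.41.

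Esam, which is also found on platelets, was at 7.57 and 7.76 in 2 month WT, 7.69 and 8.01 in 2 month ENT1-null, 7.54 and 7.41 in 6 month WT and 7.81 and 7.99 in 6 month ENT1-null. The genotypes overlapped at 2 months and not at 6 months. The difference was 0.19 ± 0.13 (limma adjusted p = 0.484) at 2 months, and at 6 months Esam rose by 0.42 ± 0.13 (adjusted p = 0.0409), a fold of 1.34. Cldn5, a tight junction claudin best known from the blood-brain barrier, was at 6.30 and 6.84 in 2 month WT, 6.57 and 7.04 in 2 month ENT1-null, 6.81 and 6.23 in 6 month WT and 6.92 and 7.12 in 6 month ENT1-null. Its WT arrays differed from each other at both ages by more than the genotypes did at either. Neither difference passed: 0.23 ± 0.25 (limma adjusted p = 0.66) at 2 months and 0.50 ± 0.25 (adjusted p = 0.161) at 6 months.

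Of the receptors, Kdr (VEGFR2) is the main signalling receptor for VEGF-A on endothelium. It was at 7.30 and 8.02 in 2 month WT, 8.14 and 8.69 in 2 month ENT1-null, 8.18 and 7.81 in 6 month WT and 8.71 and 8.50 in 6 month ENT1-null. The genotypes did not overlap at either age, yet the 2 arrays of a group lay up to 0.73 apart. The difference was 0.75 ± 0.27 (limma adjusted p = 0.188) at 2 months and 0.61 ± 0.27 (adjusted p = 0.1125) at 6 months. Tek (TIE2), the receptor for the angiopoietins, was at 6.79 and 6.89 in 2 month WT, 7.01 and 7.42 in 2 month ENT1-null, 6.94 and 6.84 in 6 month WT and 7.41 and 7.20 in 6 month ENT1-null. It too was without overlap at both ages, and at 6 months it missed the threshold narrowly: 0.38 ± 0.14 (limma adjusted p = 0.2125) at 2 months and 0.41 ± 0.14 (adjusted p = 0.0546) at 6 months.

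Flt1 (VEGFR1), which binds VEGF-A and also exists as a soluble form that traps it, varied least of the receptors. It was at 7.54 and 7.79 in 2 month WT, 7.75 and 8.06 in 2 month ENT1-null, 7.76 and 7.79 in 6 month WT and 7.89 and 7.77 in 6 month ENT1-null. The genotypes overlapped at both ages. The difference was 0.24 ± 0.13 (limma adjusted p = 0.357) at 2 months and 0.05 ± 0.13 (95% interval −0.25 to 0.35, adjusted p = 0.772) at 6 months.

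Of the glycoproteins and secreted proteins, Vwf encodes von Willebrand factor, which megakaryocytes and platelets also hold. It was at 7.23 and 7.65 in 2 month WT, 7.75 and 8.06 in 2 month ENT1-null, 7.55 and 7.56 in 6 month WT and 8.30 and 8.80 in 6 month ENT1-null. Both 6 month ENT1-null arrays were above the other 6. The difference was 0.47 ± 0.20 (limma adjusted p = 0.257) at 2 months, and at 6 months Vwf rose by 1.00 ± 0.20 (adjusted p = 0.00654), a fold of 2.00 with a 95% interval of 1.44 to 2.76, the largest of the 10 genes in this comparison. Egfl7, a secreted protein of the vessel matrix whose gene hosts a microRNA, was at 7.65 and 8.08 in 2 month WT, 7.89 and 8.41 in 2 month ENT1-null, 7.83 and 7.90 in 6 month WT and 8.35 and 8.30 in 6 month ENT1-null. It overlapped at 2 months only. The difference was 0.28 ± 0.19 (limma adjusted p = 0.465) at 2 months and 0.46 ± 0.19 (adjusted p = 0.0925) at 6 months. Another probe set that names Egfl7 together with Mir126a was not read.

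Emcn encodes endomucin, a surface sialomucin of capillaries, veins and marrow sinusoids. It was at 8.93 and 9.50 in 2 month WT, 9.66 and 9.91 in 2 month ENT1-null, 9.59 and 9.75 in 6 month WT and 9.82 and 9.69 in 6 month ENT1-null. The genotypes were apart at 2 months and overlapped at 6 months, where the WT arrays were higher than at 2 months. The difference was 0.57 ± 0.18 (limma adjusted p = 0.1565) at 2 months and 0.08 ± 0.18 (95% interval −0.35 to 0.51, adjusted p = 0.748) at 6 months.

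**Figure D2:**
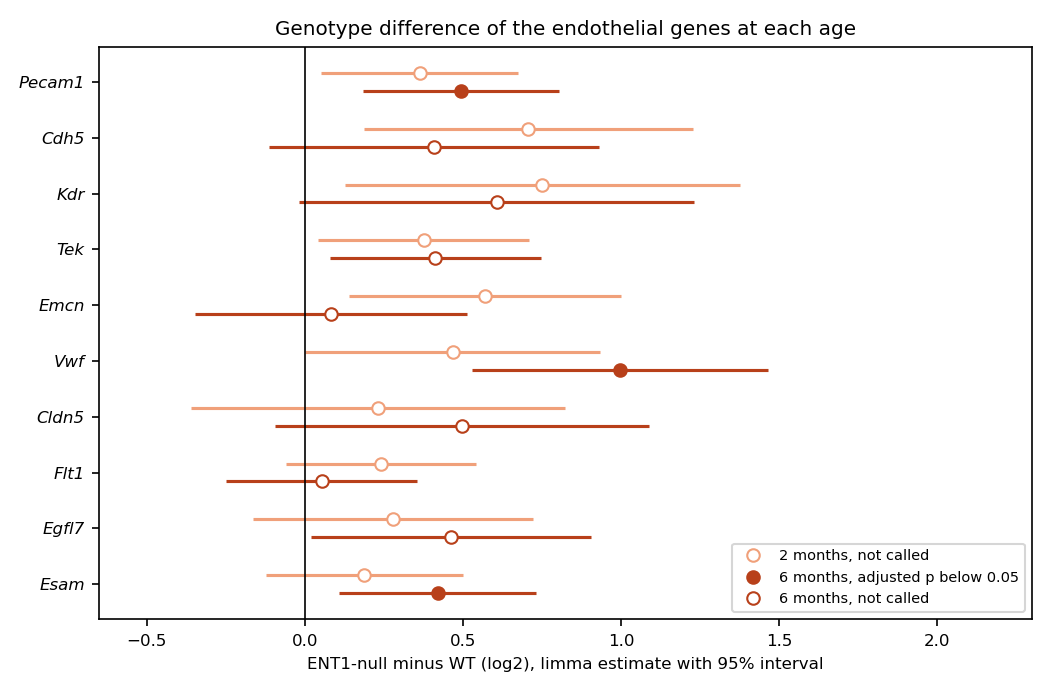
Difference between ENT1-null and WT (log2, limma estimate with 95% interval) for each endothelial gene at 2 and 6 months, with filled points where the adjusted p was below 0.05. All estimates lie above 0 (Emcn at 6 months not after a further quantile normalization), and the 3 filled points are Vwf, Pecam1 and Esam at 6 months.

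At 2 months ENT1-null and WT arrays were without overlap for 6 of the 10 genes (Pecam1, Cdh5, Kdr, Tek, Emcn and Vwf), each higher in ENT1-null, and for 19.0% of all genes in that direction. At 6 months this held for 8 of 10, all but Emcn and Flt1, and for 35.6% of all genes. By unadjusted p below 0.05 the counts were 6 of 10 at 2 months (19.4% of all genes) and 5 of 10 at 6 months (48.4% of all genes). The count at 6 months rests on few arrays: it was 1 without any 1 of the 6 month arrays (either WT array or either ENT1-null array), and 5 without either 2 month ENT1-null array. Vwf passed in each of these fits, while Pecam1 and Esam were lost without each of the 6 month arrays. At 2 months the count was 2 without WT replicate 2, namely Cdh5 (1.07, adjusted p = 0.0367) and Emcn (0.85, adjusted p = 0.0441).

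With both ages together, 4 WT against 4 ENT1-null arrays with age as a term, 5 of the 10 genes rose, against 12.8% of all genes that rose and 24.5% that passed in either direction. This fit uses the same arrays as the comparisons at each age. Vwf rose by 0.73 ± 0.17 (SE, n = 4 and 4, limma adjusted p = 0.0193), Kdr by 0.68 ± 0.19 (adjusted p = 0.0343) and Cdh5 by 0.56 ± 0.16 (adjusted p = 0.0415). The call of Cdh5 ended with no filter (adjusted p = 0.0505), on all probe sets (0.0525) and after a further quantile normalization (0.0563). Pecam1 rose by 0.43 ± 0.10 (limma adjusted p = 0.0187) and Tek by 0.39 ± 0.10 (adjusted p = 0.0272). Esam (0.30, adjusted p = 0.0627), Egfl7 (0.37, adjusted p = 0.0796), Emcn (0.33, adjusted p = 0.151), Cldn5 (0.36, adjusted p = 0.17) and Flt1 (0.15, adjusted p = 0.287) did not pass. All 4 ENT1-null arrays were above all 4 WT arrays for Pecam1, Cdh5, Tek and Vwf, which is 4 of 10 genes against 12.6% of all genes. The count of 5 was 1 without the first 2 month WT array, 2 without the second 2 month ENT1-null array, 0 without either 6 month WT array and 1 without either 6 month ENT1-null array.

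No endothelial gene passed the test of whether the genotype difference changed with age. The interaction, the difference at 6 months minus that at 2 months, ran from −0.49 for Emcn (limma adjusted p = 0.28) to 0.53 for Vwf (adjusted p = 0.279), with a median of 0.08 against 0.05 over all genes. None of the 10 passed, adjusted or at an unadjusted p below 0.05, where 4.45% and 27.0% of all genes did. A miss at this number of arrays does not show that the differences were equal.

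No endothelial gene passed the test of age in either genotype. In WT annulus 0 of 10 passed between 2 and 6 months, as did 0 of the 15526 genes (limma), and at an unadjusted p below 0.05 it was 1 of 10, Emcn (0.45 ± 0.18, adjusted p = 0.357), and 13.3% of all genes. In ENT1-null annulus 0 of 10 passed, against 22.2% of all genes, and 1 of 10 had an unadjusted p below 0.05 (35.1% of all genes): Vwf, at 0.64 ± 0.20 (adjusted p = 0.0566). That miss was narrow, and Vwf passed with the arrays centred on their medians (adjusted p = 0.0483) and when either 2 month WT array or the first 6 month ENT1-null array was left out. In the order of the 4 group means, both WT means lay below both ENT1-null means for each of the 10 genes and for 25.2% of all genes. The WT groups stand next to each other in this order and so do the ENT1-null groups, and no such pair differed past the threshold for any of the 10.

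The 2 arrays of a group differed in a shared way at 2 months. Replicate 2 was above replicate 1 for 10 of 10 endothelial genes in 2 month WT, by a median of 0.43 (58.5% of all genes were higher there), and for 10 of 10 in 2 month ENT1-null, by a median of 0.36 (59.0% of all genes). At 6 months it was above for 5 of 10 in WT (51.8% of all genes) and 4 of 10 in ENT1-null (48.7% of all genes), with medians of −0.01 and −0.06. The 2 month WT replicate 1 array was the lowest of the 8 for 8 of the 10 genes, where it was lowest for 12.4% of all genes, and 6 month WT replicate 2 was lowest for the other 2, Cldn5 and Esam (14.5% of all genes). On the 2 month replicate 2 arrays all 14 muscle genes were higher too, by medians of 1.34 in WT and 1.47 in ENT1-null. Of the neutrophil genes 15 of 15 were higher in WT, by a median of 1.20, and 13 of 15 in ENT1-null, by 0.42. All 10 mural cell genes were higher in both groups. Of 29 other pan-endothelial genes 27 were higher in WT and 26 in ENT1-null. Of 6 sinusoid genes, 6 were higher in WT and 1 in ENT1-null. The part of these lists in the gap was not tested. The median endothelial difference at 2 months became 0.21 when WT replicate 1 was left out and 0.54 when WT replicate 2 was. Leaving out ENT1-null replicate 1 made it 0.56, and leaving out replicate 2 made it 0.24.

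The 10 genes are some of many that mark endothelium, and 29 other pan-endothelial genes were tested. At 2 months none passed (limma), 27 of 29 were above 0, and the median was 0.24. At 6 months 23 of 29 were above 0, 6 rose, 1 fell, and the median was 0.24, where 21.2% of all genes rose, so that the share that rose was near that of all genes. Fli1, an ETS factor of endothelium and of megakaryocytes, rose by 1.42 ± 0.23 (limma adjusted p = 0.00245), Tal1, a transcription factor of blood and vessel progenitors, by 1.19 ± 0.15 (adjusted p = 0.00106) and Bmx, a tyrosine kinase of arterial endothelium and myeloid cells, by 1.08 ± 0.12 (adjusted p = 0.000614). Cd93 (0.93, adjusted p = 0.0215), Myct1 (0.54, adjusted p = 0.0199) and Sox18 (0.75, adjusted p = 0.0494) were the other 3. Ramp2, part of the adrenomedullin receptor, fell by 0.80 ± 0.16 (limma adjusted p = 0.00718). The 6 rises were 3 when either the first 6 month WT array or the second 6 month ENT1-null array was left out, the falls were 3 without either 2 month WT array, and the call of Ramp2 ended without 6 month WT replicate 2 (adjusted p = 0.051).

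Fli1 and Erg, chosen after their values were seen, are the ETS pair best known from endothelium. Fli1 was at 8.81 and 9.33 in 2 month WT, 9.30 and 9.87 in 2 month ENT1-null, 9.25 and 8.94 in 6 month WT and 10.59 and 10.44 in 6 month ENT1-null. Erg was at 9.10 and 8.97, 9.07 and 9.10, 8.87 and 8.74, and 8.81 and 8.89 in the same groups. The 6 month ENT1-null arrays were the highest of the 8 for Fli1, and for Erg they lay among the others, with a difference at 6 months of 0.05 ± 0.09 (limma 95% interval −0.16 to 0.25, adjusted p = 0.704).

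A list of sinusoid genes was read as well, but not all of them are particular to marrow sinusoids or to endothelium. Of the 6 tested, 4 rose at 6 months, against 21.2% of all genes: Stab2, Vcam1, Mrc1 and Stab1. Mrc1 is also on the macrophage list. Stab1 was at 7.64 and 7.93 in 6 month WT and at 8.30 and 8.39 in 6 month ENT1-null. None fell, 5 of the 6 were above 0, and the median was 0.85. Lyve1, also on this list, went the other way, and its test is given below. It was at 8.73 and 9.07 in 6 month WT and at 8.02 and 8.41 in 6 month ENT1-null. Stab2, a scavenger receptor of sinusoidal endothelium, was at 6.07 and 6.29 in 2 month WT, 6.97 and 6.88 in 2 month ENT1-null, 6.41 and 6.23 in 6 month WT and 7.85 and 8.31 in 6 month ENT1-null. All ENT1-null arrays were above all WT arrays. The WT arrays of Stab2 lay near the filter level (6.21), so its rise starts from there. Stab2 rose by 1.75 ± 0.16 (limma adjusted p = 0.000427) at 6 months, Vcam1, an adhesion molecule of marrow sinusoids and stroma, by 1.94 ± 0.27 (adjusted p = 0.00146) and Mrc1, which macrophages also carry, by 1.15 ± 0.24 (adjusted p = 0.00739). At 2 months none of the 6 passed: Vcam1 was at 1.33 (adjusted p = 0.0661) and Stab2 at 0.75 (adjusted p = 0.0695), with a list median of 0.52.

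Genes of arteries and of lymph vessels were listed apart, and at 6 months 21.2% of all genes rose and 17.6% fell. Bmx, counted again among the arterial genes, lay near the filter level in WT. It was at 6.01 and 6.15 in 2 month WT and at 6.27 and 6.07 in 6 month WT. Of 8 arterial genes 2 rose and 1 fell at 6 months, with a median of 0.08: Bmx, and Fbln5, an elastic fibre protein (1.16 ± 0.23, limma adjusted p = 0.00677), rose, and Efnb2, the arterial ephrin, fell by 1.08 ± 0.22 (adjusted p = 0.0068). Of 5 lymphatic genes 3 rose and none fell (1 did without either 2 month WT array), with a median of 0.61: Mmrn1 (1.39 ± 0.23, limma adjusted p = 0.00251), Reln (0.805 ± 0.10, adjusted p = 0.000776) and Flt4, the VEGF-C receptor (0.61 ± 0.11, adjusted p = 0.00474). Lyve1, a lymphatic and macrophage marker, was at −0.68 (adjusted p = 0.0521), and Prox1, the factor that defines lymphatic endothelium, was below the level tested. Mmrn1 is also stored in platelets.

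Mural cells, the pericytes and smooth muscle that wrap vessels, did not move one way: at 6 months 2 of 10 rose and 1 fell, with a median of −0.01. Over all genes 21.2% rose and 17.6% fell, so that the mural counts were not above these shares. Kcnj8 (0.47, limma adjusted p = 0.0267) and Abcc9 (0.58, adjusted p = 0.03), the subunits of a pericyte potassium channel, rose, and Cspg4 (NG2), which cartilage cells also make, fell by 0.69 ± 0.10 (adjusted p = 0.00168). The calls of Kcnj8 and Abcc9 ended when any single 6 month array was left out, and 3 mural genes fell without the first 6 month WT array. None of 8 genes of the vessel basement membrane passed at either age (limma), with medians of 0.09 at 2 months and −0.17 at 6 months. At 6 months 2 fell without the first ENT1-null array of that age, and 1 fell without any single 2 month array. The closest at 6 months were Nid2 (−0.47, adjusted p = 0.0531) and Sparc (−0.29, adjusted p = 0.0729).

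Of 22 genes of vessel growth signalling (ligands and receptors of the VEGF, angiopoietin, apelin, Notch and ephrin systems, and the transcription factors Hif1a, Epas1, Hey1 and Hey2), 6 rose and 3 fell at 6 months, against 21.2% of all genes that rose and 17.6% that fell, with a list median of 0.09. None passed at 2 months, where the median was 0.05. Vegfa, the main vessel growth factor, was at 10.24 and 10.16 in 2 month WT, 10.26 and 10.19 in 2 month ENT1-null, 9.95 and 10.32 in 6 month WT and 9.55 and 9.25 in 6 month ENT1-null. Both 6 month ENT1-null arrays were below the other 6. Vegfa fell by 0.74 ± 0.14 (limma adjusted p = 0.00579). Hif1a, a hypoxia factor known to drive Vegfa, fell by 0.86 ± 0.09 (limma adjusted p = 0.000532). Whether these 2 falls are linked was not tested. On the other side Pgf, a VEGF family ligand of FLT1, rose by 0.71 ± 0.13 (limma adjusted p = 0.00418) and Notch1 by 0.57 ± 0.10 (adjusted p = 0.00335). The coreceptors Nrp1 (0.68, adjusted p = 0.0353) and Nrp2 (0.85, adjusted p = 0.0235) rose as well. Pgf was at 6.02 and 6.07 in 6 month WT and at 6.66 and 6.86 in 6 month ENT1-null. All WT arrays of Pgf, also those of 2 months (5.91 and 6.19), lay below the filter level. Only its mean over all arrays (6.28) passed that level, so its rise starts from a level near the filter. The 6 rises were 3 when the first 6 month array of either genotype was left out.

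Of 10 inhibitors of vessel growth 7 fell at 6 months, against 17.6% of all genes, none rose (1 did without either 2 month WT array), and the median was −0.59, against −0.04 at 2 months, where none passed. Cnmd, the cartilage angiogenesis inhibitor chondromodulin, fell by 0.84 ± 0.07 (limma adjusted p = 0.000427), Sema3e, a guidance ligand that repels vessels, by 1.17 ± 0.13 (adjusted p = 0.000618) and Thbs1, thrombospondin 1, by 0.94 ± 0.12 (adjusted p = 0.00091). The other 3 were above 0 and did not pass: Serpinf1 at 0.58 (adjusted p = 0.0946), Tnmd, the tendon relative of Cnmd, at 0.47 (adjusted p = 0.186) and Col18a1, the source of endostatin, at 0.12 (adjusted p = 0.369). On the same arrays 11 of 15 annulus and cartilage genes fell and 2 rose (1 without the second 6 month WT or the first 6 month ENT1-null array), with a median of −0.82, and the mean of that list was 11.00 and 11.05 on the 6 month WT and 10.63 and 10.47 on the 6 month ENT1-null arrays. Its part in the fall of the inhibitors was not tested.

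**Figure D3:**
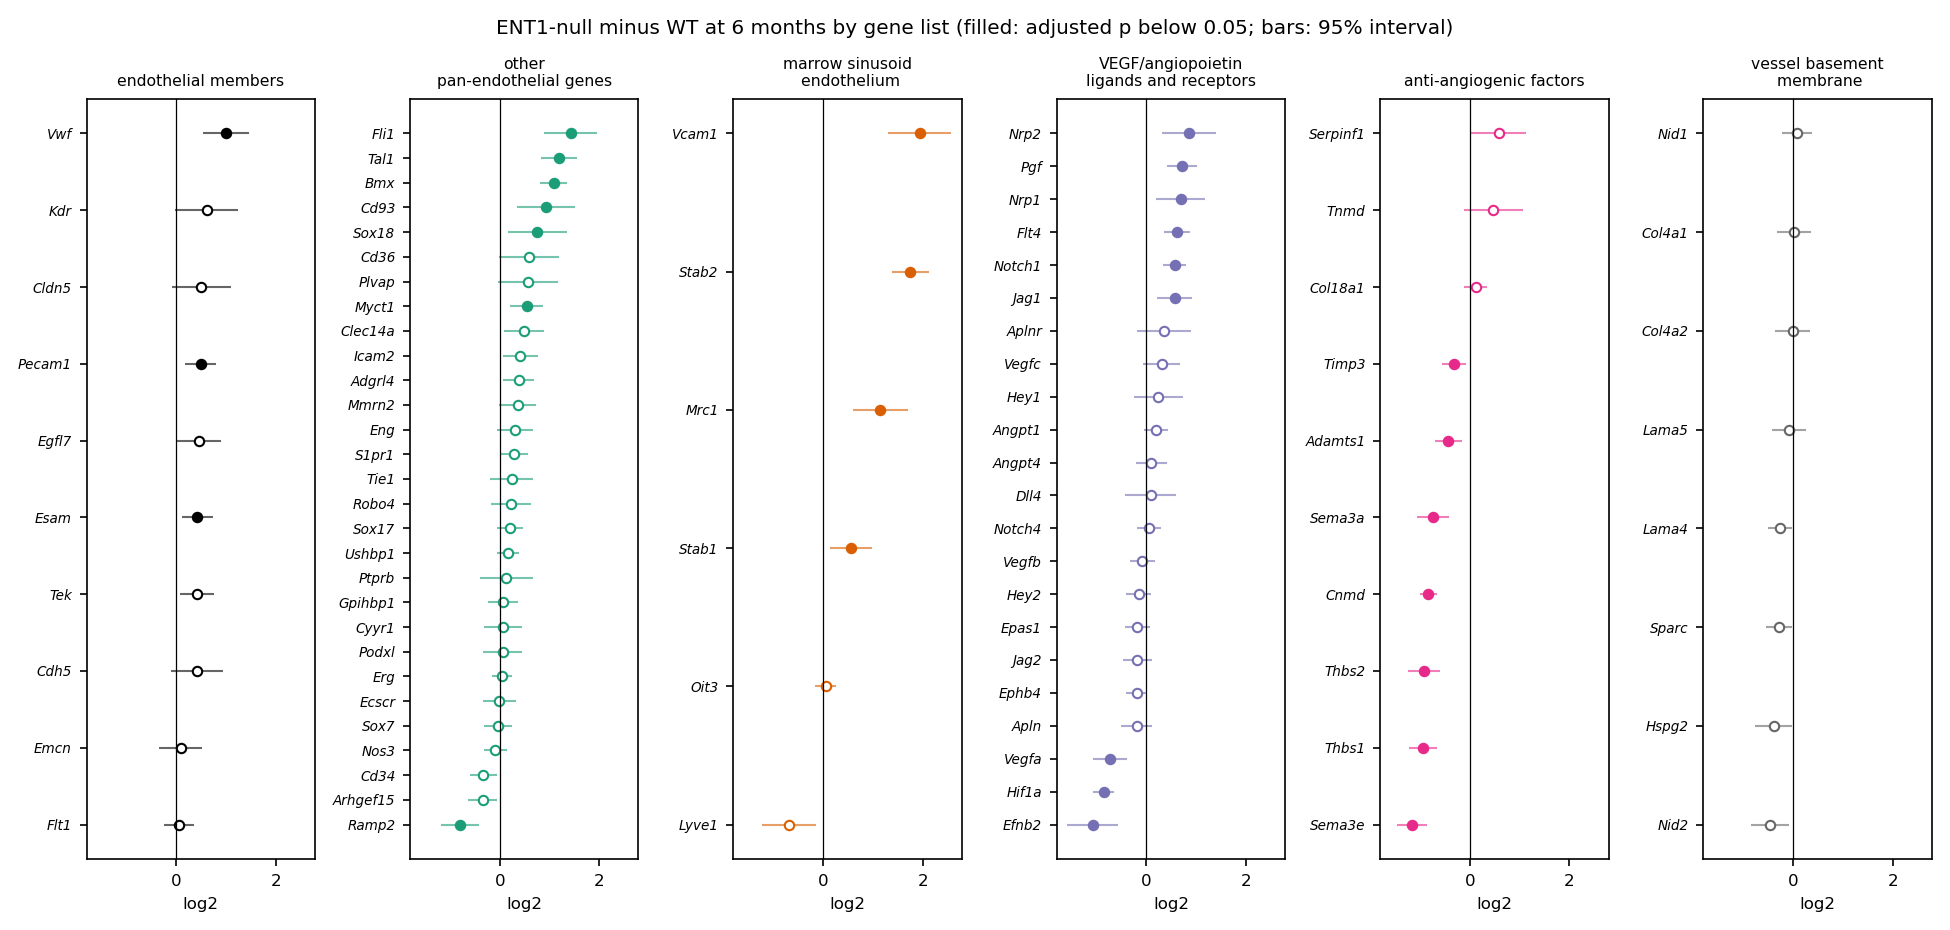
Difference between ENT1-null and WT at 6 months (log2, limma estimate with 95% interval) for each tested gene of 6 lists, with filled points where the adjusted p was below 0.05. Sinusoid genes lie mostly to the right of 0 and anti-angiogenic genes mostly to the left, while the basement membrane list has no filled point.

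Blood cell markers were higher on the ENT1-null arrays on which the endothelial genes were higher, and by more. At 6 months 9 of 10 megakaryocyte and platelet genes rose, with a median of 1.73, for example Gp5 (1.72 ± 0.25, limma adjusted p = 0.00167) and Itga2b, the platelet integrin (1.42 ± 0.18, adjusted p = 0.00106). All 15 neutrophil genes rose (median 2.54), as did 5 of 5 erythroid (2.19), 8 of 9 macrophage (1.45) and 5 of 6 B cell genes (1.33). Over all genes 21.2% rose at 6 months. At 2 months none of the platelet, neutrophil, macrophage and B cell genes passed, with medians of 1.25, 1.52, 0.72 and 0.55, and 1 of 5 erythroid genes did. The mean of the platelet list was 7.43 and 8.38 in 2 month WT, 9.09 and 9.06 in 2 month ENT1-null, 8.35 and 7.77 in 6 month WT and 9.71 and 9.94 in 6 month ENT1-null. That of the 10 endothelial genes was 7.74 and 8.18, 8.20 and 8.56, 8.13 and 8.04, and 8.52 and 8.53 in the same groups, in the order given above. Both lists were lowest on 2 month WT replicate 1, the endothelial list was highest on 2 month ENT1-null replicate 2 and the platelet list on 6 month ENT1-null replicate 2, and the neutrophil list was lowest on 6 month WT replicate 2. The part of blood cells or of marrow tissue in the endothelial differences was not tested. The 15 neutrophil rises were 8 without the second 6 month WT array, 6 without the first ENT1-null array of that age and 7 without the second, and the 5 B cell rises were 3 without the first.

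Skeletal muscle, which lies against the spine, had its lowest levels on the 6 month ENT1-null arrays among the arrays of that age. At 6 months 13 of 14 skeletal muscle genes fell (median −2.29), and the muscle list was at 10.30 and 10.19 in WT and at 7.44 and 8.48 in ENT1-null. Over all genes 17.6% fell and 21.2% rose at that age. At 2 months none of the muscle genes passed, and their median was 1.04, on the side of the endothelial genes. The 13 falls were 2 without the first 6 month WT array, 3 without the second and 2 without the first 6 month ENT1-null array. Of 6 adipocyte genes 1 rose and none fell at 6 months (2 fell without the first 6 month WT array), with a median of −0.15. Their part in the endothelial differences was not tested.

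**Figure D4:**
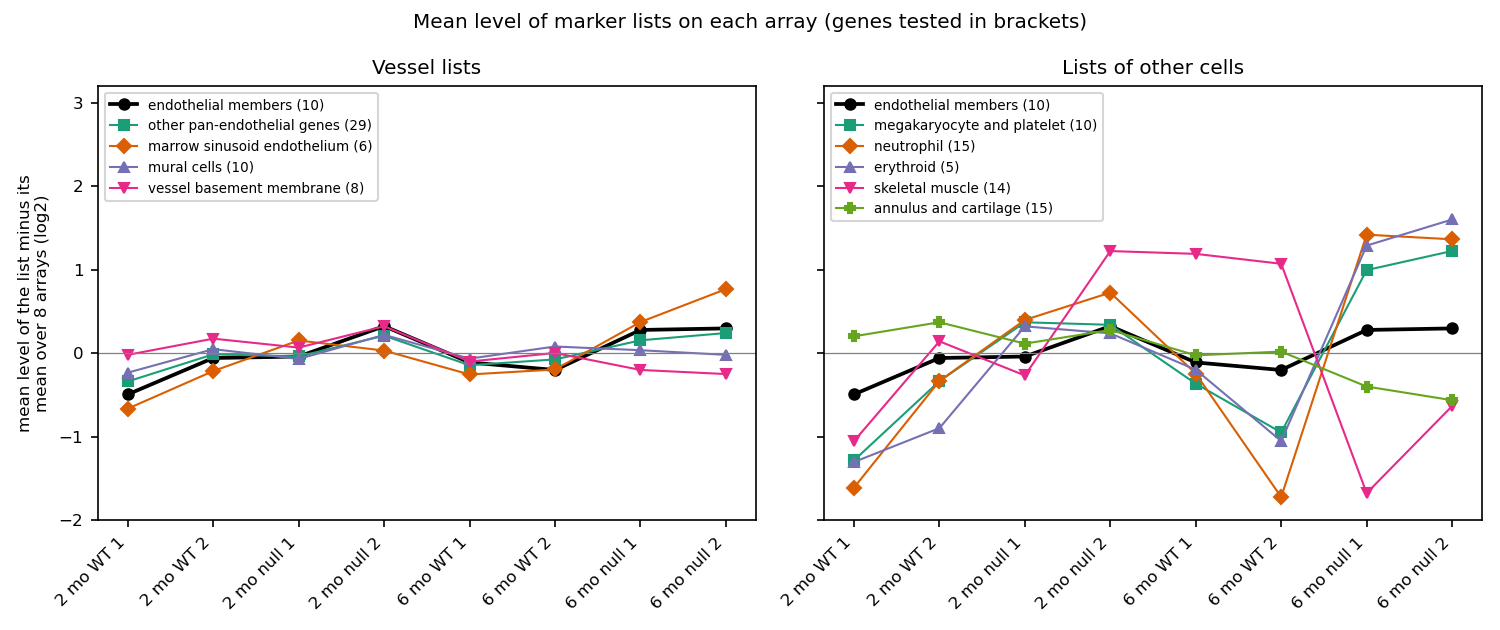
Mean level of each marker list on each array minus its mean over the 8 arrays (log2), with vessel lists on the left and lists of other cells on the right, and lines that only guide the eye. The endothelial genes span less than 1 unit over the arrays, whereas the blood cell lists lie close to or above 1 on both 6 month ENT1-null arrays and the muscle list falls there below 0.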

How the data were processed

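RNA of 8 pools was hybridised to 8 Affymetrix arrays, and the labels give genotype and age. The deposited values are log2 levels that the authors made with RMA, per the submitters' processing notes. RMA subtracts background, equalises the distributions of the arrays and combines the probes of each set. The RMA version and the build behind the array design were not given in the sources used here. Array medians ran from 6.77 to 6.82, and the number of arrays limits the precision. Of 41345 probe sets, 23521 named 1 gene, 1814 several and 16010 none, per the array annotation. Each gene was read from its single-gene probe set with the highest mean, and genes below the 30th percentile of means were left out. None of the 10 endothelial genes had a second single-gene probe set.

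limma 3.58.1 in R 4.3.3 was fitted to all genes, with 4 group means (4 residual degrees of freedom) or with terms for genotype and age (5 residual degrees of freedom). Benjamini-Hochberg adjustment ran over the 15526 genes of each comparison, with a call at adjusted p below 0.05. Lists were counted over their tested genes. The fits were tested on simulated data. The genes and lists were chosen with earlier results of these data known. Besides the 10 genes and Slc29a1, the rule named up to 3 called genes with the largest moderated statistic per list and direction, or, where a list had no called gene, the 2 with the largest statistic; others are named in counts of a list or were chosen after their values were seen. Lists overlap: Bmx, Dll4, Efnb2, Flt4, Hey1, Lyve1, Mrc1 and Tnmd are in more than 1.

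Each result was also computed with the filter off or at the 50th percentile, after a further quantile normalization or median centring, on all probe sets, with a replicate block, with a robust trended eBayes, from only the groups compared, without each array in turn, and at adjusted p below 0.1. Promoters came from the RefSeq table of build GRCm38.p6.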

Additional observations from a re-analysis of the deposited data

Results flagged for a closer look

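In 3 genes of the vessel lists the genotype difference itself changed between 2 and 6 months by the interaction test of limma. They were 1 of 22 growth signalling genes and 2 of 10 inhibitors, with none on the other vessel lists. Over all genes 4.45% passed, and 4 of 15 annulus and cartilage genes did, so such a change was not particular to vessel genes. For Hif1a the difference at 6 months minus that at 2 months was −0.78 (log2, adjusted p = 0.0383), and the range was −0.84 to −0.72 when each array was left out. For Cnmd it was −0.78 (adjusted p = 0.0383), with a range of −0.81 to −0.76, and for Sema3e −0.90 (adjusted p = 0.0439), with a range of −1.03 to −0.76. Levels of Hif1a were 10.93 and 10.80 in 2 month WT, 10.81 and 10.77 in 2 month ENT1-null, 10.85 and 10.94 in 6 month WT and 10.08 and 9.98 in 6 month ENT1-null. The calls depended on single arrays: those of Hif1a and Cnmd passed with 6 month WT replicate 1 left out and with no other array left out, where adjusted p reached 0.128, and that of Sema3e passed with none left out (adjusted p from 0.0593 to 0.132). None of the 10 endothelial genes passed the interaction test, which does not show that their differences were equal at the 2 ages.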

How the results depend on the processing

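The number of endothelial genes called higher at 6 months was 3, and it was 7 with only the groups compared, 5 at adjusted p below 0.1 and 1 to 5 with each array left out. Pecam1 was lost with quantile normalization again (limma adjusted p = 0.0547), and Esam with it (0.0577), with no filter (0.0549) and with all probe sets (0.058). Tek, in contrast, became called with quantile normalization again (limma adjusted p = 0.049) and with arrays centred on their medians (0.0421). At 2 months the count of 0 was 0 to 2 with each array left out. Across ages the count of 5 was 0 to 7 with each array left out. By age in ENT1-null annulus the count of 0 was 1, namely Vwf, with arrays centred on their medians, with the replicate block and at adjusted p below 0.1, and 0 to 1 with each array left out. The counts in the interaction and by age in WT stayed at 0 under every alternative tried.

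The replicate block (replicate number as a term) gave Vwf by age in ENT1-null an adjusted p of 0.0198 and Kdr across ages one of 0.0502. No label ties the numbers to a shared animal or day, and they were not taken to pair the arrays: deviations of same-numbered arrays correlated at 0.41 between the 2 month groups and at −0.39 to 0.15 between the other pairs of groups. With the block 0 of 10 passed at 2 months.

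Over single endothelial genes and settings, 827 estimates kept their direction and side of the threshold, 41 were no longer called, 21 became called, and 39 that were not called turned in sign. No called value turned. At 6 months Emcn was −0.02 with quantile normalization again, and Flt1 −0.01 without 6 month ENT1-null replicate 1. At 2 months Cldn5 was −0.04 without 2 month WT replicate 1 and −0.0025 without 2 month ENT1-null replicate 2. Reading every other single-gene probe set of these genes was not run, because none has one. The cause of these changes was not tested. A group that loses an array is left with 1, which is then assumed to vary like the other groups.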
